A study of Homo sapiens with 21 samples.

Results

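Genes of the tight junction, the seal between neighbouring epithelial cells, were followed through 17 cancer cell lines. The 9 were CLDN1, CLDN3, CLDN4, CLDN7, OCLN, MARVELD2, MARVELD3, TJP3 and CGN. They were chosen by name, by matching the Ensembl identifiers of the count tables to gene symbols, and all 9 were matched among the 53515 genes counted. Tight junctions are belts near the top of the lateral membrane in which claudins form the barrier strands and the ion-selective pores. The MARVEL proteins occludin (OCLN), tricellulin (MARVELD2) and MARVELD3 share these strands, and tricellulin gathers where corners of cells meet. Cytoplasmic plaque proteins such as ZO-3 (TJP3) and cingulin (CGN) tie the strands to actin. In the epithelial-to-mesenchymal transition (EMT), in which cells lose contacts with their neighbours, junctions are known to be taken apart, and repressors of the ZEB and Snail families are known to bind E-box sequences in epithelial genes.

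RNA was sequenced from 7 parental cell lines and 10 resistant lines that had been kept in a cancer drug until they grew in it, in 21 libraries. HepG2, a line from a liver tumour, was the parent of the sorafenib-resistant HepG2S1 and HepG2S3. The pancreatic line Panc 03.27, here called PancVB, was the parent of PancB1Q and PancB1V, which resist 5-fluorouracil. The lung lines were HCC4006P1 with its erlotinib-resistant HCC4006ER, HCC4006P2 with its gefitinib-resistant HCC4006GR, and HCC827P with its gefitinib-resistant HCC827GR. The ovarian lines were IGROV-1, from which the cisplatin-resistant IGROV-1/CDDP came, and UWB1.289, from which U10 and U100 were selected in olaparib. The study assigned full EMT to 7 pairs and partial EMT to the 3 ovarian pairs, in part from a gene signature that holds OCLN, so OCLN is not independent of that label. Replicate libraries, 2 of each, exist for HCC4006ER, HCC4006P1, HepG2 and HepG2S3, and 13 lines have a single library, so 8 of 10 pairs hold at least 1 line without a replicate. Nothing in the labels says that the paired libraries came from separate cultures, so p-values measure only the spread between these libraries.

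Total counts on genes ran from 9851195 to 36639473 per library, with a median of 19498932. Levels are given as CPM, each count scaled to a common total of counts on genes, and 3 counts, taken as the limit of detection, correspond to between 0.0819 and 0.305 CPM, depending on the library. In HCC4006P1 replicate 1, counts stop on chromosome 7 at about GARS1, so CLDN3 and CLDN4 have no measurement there. The order of chromosomes is alphabetical, and those after chromosome 7 in that order are missing too. The other members, on chromosomes 1, 3, 5, 16, 17 and 19, lie before the stop. The missing stretch holds 18.1% of the counts of replicate 2, which raises the CPM of every other gene in replicate 1 by 22.1%. The lines labelled HepG2S1 and HepG2S3 stood apart from HepG2 by tissue markers. The summed level of 4 hepatocyte genes (ALB, AFP, APOA1 and TTR) was 16437 CPM in HepG2, 17.2 CPM in HepG2S3 and 0 in HepG2S1, where all 4 were at 0. KRT7, a keratin of ductal epithelium, was at 1.03 CPM in HepG2, 2733 CPM in HepG2S1 and 2912 CPM in HepG2S3. The other ductal markers went the other way, with KRT19 at 347 CPM in HepG2 against 102 and 164 CPM, and SOX9 at 248 CPM against 1.73 and 0.748 CPM. The fibroblast genes LUM, DCN and PDGFRB summed to 8.13 CPM in HepG2, 536 CPM in HepG2S1, 388 CPM in HepG2S3, 0.183 CPM in HCC4006P1 and 163 CPM in HCC4006ER, and their sum did not pass 5.50 CPM in any other line. PDGFRB alone was not higher in the HepG2 family, with 8.09 CPM in HepG2, 2.03 CPM in HepG2S1 and 6.88 CPM in HepG2S3. The lung markers NKX2-1, NAPSA and SFTPB summed to 0.423 CPM in HCC4006P1 against 266 CPM in HCC4006P2, although both carry the name HCC4006. They summed to 21.2 CPM in HCC4006GR, and to 91.7 CPM in HCC827P against 28.1 CPM in HCC827GR. The leukocyte genes PTPRC, CD3E and CD14 did not pass 0.665, 0.0662 and 11.4 CPM in any line. CDH1, the adhesion protein of epithelial cells, was at 144 CPM in HepG2, 0.305 CPM in HepG2S1 and 0.528 CPM in HepG2S3, and at 509.8 CPM in HCC4006P1 against 9.49 CPM in HCC4006ER. Whether HepG2S1, HepG2S3 and HCC4006P1 are the lines that their labels name was not tested on these counts, and the comparisons that follow take each library as labelled. The part of these differences in the values was not tested either, and counts over pairs are given with and without the HepG2 and HCC4006ER pairs.

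The members lie on 7 chromosomes of GRCh37, the build of the count tables. CLDN1 is at chr3:190023496-190040235, CLDN7 at chr17:7163222-7167302, MARVELD3 at chr16:71660064-71676017, TJP3 at chr19:3708360-3750811 and CGN at chr1:151482986-151511168. CLDN3 (chr7:73183327-73184600) and CLDN4 (chr7:73213872-73247020) are neighbours with 29.3 kb between them. MARVELD2 (chr5:68710892-68740157) and OCLN (chr5:68788119-68853931) are 48.0 kb apart. CLDN7 overlaps ELP5, MARVELD3 overlaps PHLPP2 and TJP3 overlaps APBA3, each on the opposite strand. The strand setting of the counting is not given in the sources used here, so reads from such overlaps may be shared or dropped. OCLN has a pseudogene copy, and its counts may be split with it.

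The E-box CACCTG, the core sequence bound by ZEB and Snail family repressors, was searched on both strands in the 250 bases before each RefSeq start (windows of GRCh38.p14, placed on GRCh37 by an exact match of their sequence). Windows were found for 8 members, 11 in all, since some genes have several starts. The E-box was present in 4 of the 11 windows, 36.4%, against 17.5% of 35116 windows of all genes. A CLDN7 window held 4 copies, a number reached by 0.122% of all windows, and both OCLN windows and 1 TJP3 window held 1 copy. The stretches of 30 bases around the copies are shown because they are the only stretches of the member windows that hold it, with the E-box in capitals as read on the gene's strand (CAGGTG is the same site on the other strand).
CLDN7, chr17:7165954-7165983, minus strand: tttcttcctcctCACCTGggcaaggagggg
CLDN7, chr17:7165915-7165944, minus strand: cgacttccggttCAGGTGagtgtcccttcg
CLDN7, chr17:7165800-7165829, minus strand: cctacatatactCAGGTGcgcccCACCTGt
OCLN, chr5:68788329-68788358, plus strand: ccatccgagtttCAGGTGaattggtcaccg
OCLN, chr5:68788472-68788501, plus strand: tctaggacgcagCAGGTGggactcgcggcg
TJP3, chr19:3721705-3721734, plus strand: gagacctggaggaggaagaggggCAGGTGc
These CLDN7, OCLN and TJP3 windows overlap exons of their own genes in the GENCODE annotation, so they lie in part behind another start. A match of these letters is a description and not a measured binding site, and the windows of CLDN1, CLDN3, CLDN4, MARVELD2 and CGN held no copy.

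The range of levels between lines differed from member to member. CLDN1 ranged from 1.38 CPM in HCC4006ER to 1712 CPM in U10 and CLDN7 from 0.0416 CPM in HepG2 to 202 CPM in HCC4006P2. OCLN ranged far less, from 3.26 CPM in HepG2S3 to 64.0 CPM in HCC827P. Over the 17 lines the members' levels on log2(CPM + 1) were positively correlated in all 36 gene pairs, with a median Pearson r of 0.62 (range 0.18 to 0.89). The log2 changes over the 10 pairs were less alike, with r above 0 in 31 of 36 gene pairs and a median of 0.45 (range -0.62 to 0.94). The lowest values were those of OCLN with CLDN3 (-0.62) and with CLDN7 (-0.52). Lines of one parent share their origin, and some pairs share a parental library, so these coefficients are descriptive. MARVELD3 followed the mean of the other members most closely (r = 0.91), then TJP3 (0.89), CGN (0.88) and MARVELD2 (0.84). CLDN1 followed it least (r = 0.45). The mean z-score of the 9 members was highest in HCC4006P1 (0.91), U100 (0.90) and HCC4006P2 (0.89) and lowest in HepG2S3 (-1.23), HCC4006ER (-1.22) and HepG2S1 (-1.02).

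**Figure D1:**
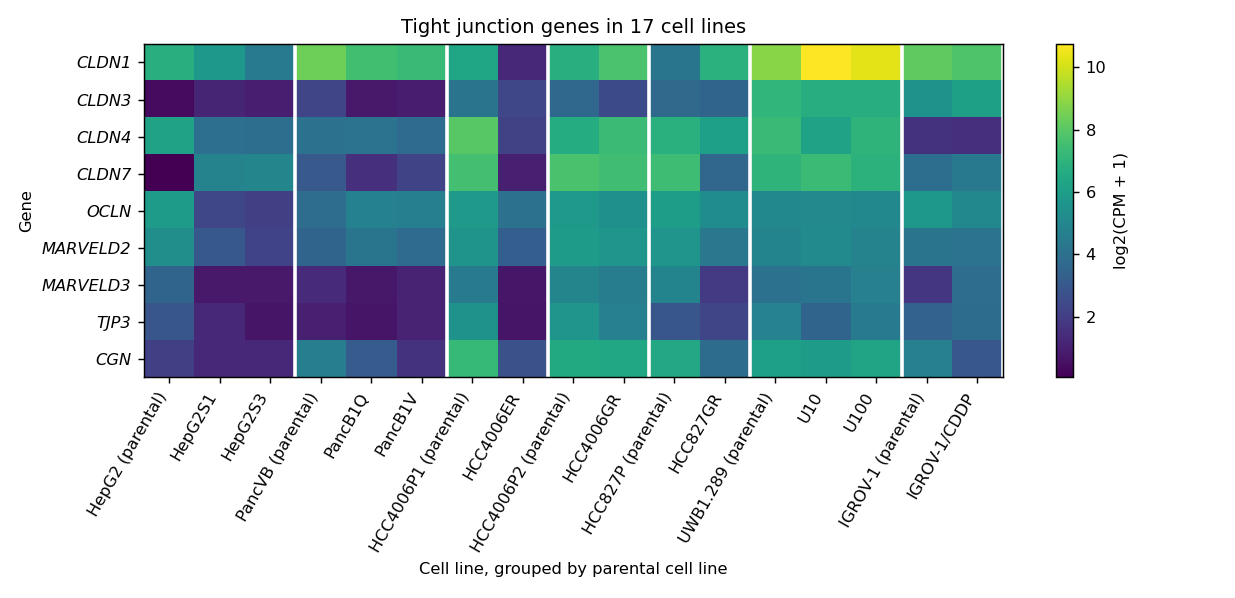
Level of each tight junction gene in each of the 17 cell lines, as log2(CPM + 1) by colour, with replicate libraries averaged and white lines between families of one parental line. CLDN1 is brightest in U10 (1712 CPM), CLDN7 is darkest in HepG2 (0.0416 CPM), and the HCC4006ER column is dark next to that of HCC4006P1.

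Each resistant line was then compared with its parental line by log2((resistant CPM + 1)/(parental CPM + 1)), and a gene was counted as lower or higher past 2-fold. Of the 90 values, 35 were lower (38.9%), 6 were higher and 49 were within 2-fold. Of all gene values pooled over the pairs, 9.33% were lower. Between 5.55% and 27.3% of all genes were higher, depending on the pair. In the full EMT pairs 32 of 63 values were lower and 3 higher. In these pairs 7.25% to 18.4% of all genes were lower and 6.1% to 27.3% higher, depending on the pair. In the partial EMT pairs 3 of 27 values were lower and 3 higher. There 1.73% to 7.21% of all genes were lower and 5.55% to 6.43% higher. Without HepG2S1 and HepG2S3, 23 of 72 values were lower, against 7.16% of all gene values, and 4 were higher. Without HCC4006ER as well, 14 of 63 were lower, against 6.52%, and 4 were higher. Between 5.55% and 11.8% of all genes were higher in the pairs kept, and 10.6% at most without HCC4006ER. All 9 members were lower in HCC4006ER, where 11.7% of all genes with at least 1 CPM were lower and 11.8% higher. Of the members, 6 were lower and 1 higher in HepG2S1 (background 18.4% lower, 25.5% higher) and likewise in HepG2S3 (17.7% and 27.3%). HCC827GR had 4 lower (background 7.67%) and 1 higher (10.6%), and there CDH1 was at 53.3 CPM against 748 CPM and EPCAM at 24.1 CPM against 480.3 CPM in the parent. PancB1Q and PancB1V had 3 lower each (9.41% and 7.25%) and none higher (6.1% and 8.89%). In HCC4006GR, also listed as full EMT, only CLDN3 was lower (7.47%) and none was higher (7.75%). U10 had 2 lower (5.11%) and 1 higher (6.27%), U100 none lower (1.73%) and 1 higher (6.43%), and IGROV-1/CDDP 1 lower (7.21%) and 1 higher (5.55%). The median member change was -4.52 in HCC4006ER, -2.29 in HepG2S3, -1.62 in HepG2S1 and -0.76 in HCC827GR, against medians of all genes of -0.01, 0.28, 0.25 and 0.05. In the remaining pairs the median member change lay between -0.57 and 0.06.

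**Figure D2:**
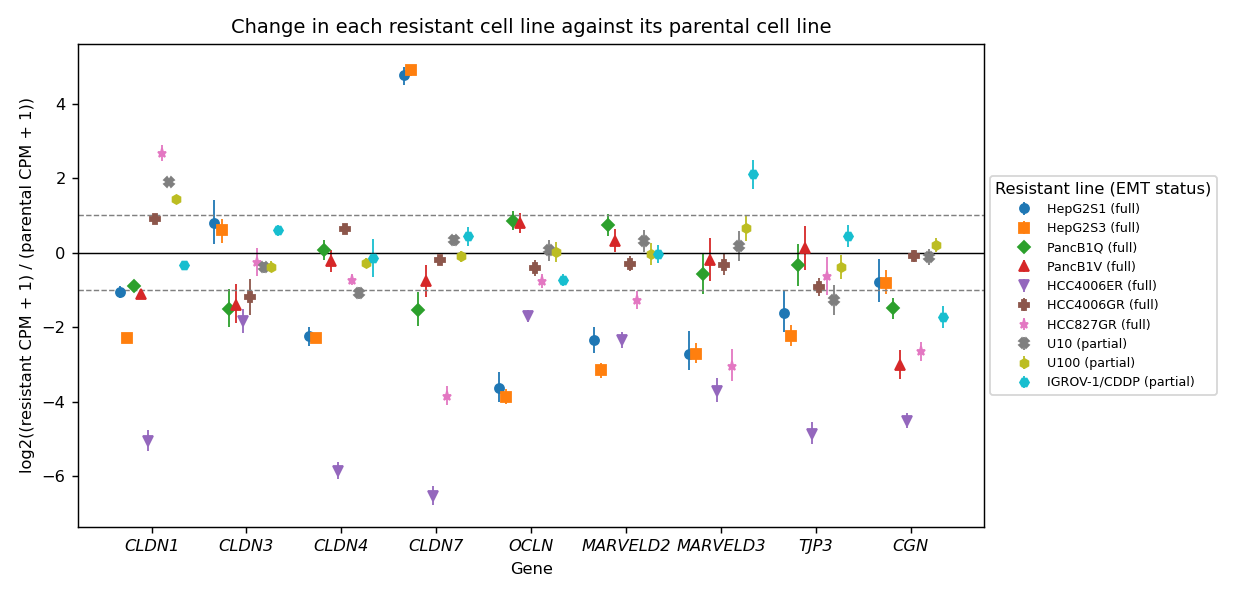
Change of each tight junction gene in the 10 resistant lines against their parental lines, as log2 fold change of CPM with 1 CPM added; bars are 95% counting intervals and dashed lines mark 2-fold. HCC4006ER is the lowest point for CLDN1, CLDN3 is within 2-fold or lower in all pairs, and CLDN7 stands above 4 in HepG2S1 and HepG2S3 and at -6.54 in HCC4006ER.

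The claudins differed in direction between families. CLDN1, a barrier-forming claudin, was between 17.4 CPM (HCC827P) and 462 CPM (UWB1.289) in the parental lines, with a median of 111 CPM, and between 1.38 and 1712 CPM in the resistant lines, with a median of 165 CPM. It was lower in 4 resistant lines and higher in 3. In HCC4006ER it was at 1.38 CPM against 78.9 CPM in the parent. In HCC827GR it was at 117 CPM against 17.4 CPM, a 6.73-fold higher level. In U10 and U100 it was at 1712 and 1264 CPM against 462 CPM in UWB1.289. These single-library values have 95% counting intervals of the log2 change of 2.46 to 2.90 in HCC827GR, 1.83 to 1.95 in U10 and 1.39 to 1.51 in U100, which cover counting error only. CDH5, the only endothelial marker matched, was at 9.03 CPM in UWB1.289, 81.4 CPM in U10 and 43.9 CPM in U100, and its part in the CLDN1 values was not tested.

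CLDN7, a claudin found widely along epithelial cell borders, had 2 and 1 counts in the HepG2 libraries, below the limit of 3. It had 271 counts (27.5 CPM) in HepG2S1 and 1910 counts over both libraries of HepG2S3 (34.7 and 26.0 CPM). The ratio to HepG2 was 656 in HepG2S1 (95% exact counting interval 222 to 3199) and 726 in HepG2S3 (248 to 3526). In 3 resistant lines CLDN7 was lower past 2-fold. CLDN7 was at 0.994 CPM in HCC4006ER against 184 CPM in the parent, at 10.9 CPM in HCC827GR against 171 CPM, and at 1.82 CPM in PancB1Q against 7.14 CPM. In HCC4006GR it was at 176 CPM against 202 CPM. CLDN7 was thus higher in the resistant lines of the HepG2 family, where both parental libraries were below the limit of detection. It was lower in HCC4006ER, where its 19 and 20 counts were above that limit.

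CLDN4, which together with CLDN3 binds the Clostridium perfringens enterotoxin, was at 73.2 CPM in HepG2, 14.6 CPM in HepG2S1 and 14.2 CPM in HepG2S3. It was at 250.1 CPM in HCC4006P1 replicate 2 and at 3.95 and 2.67 CPM in the HCC4006ER libraries. In U10 it was at 73.0 CPM against 155 CPM, and the other 6 pairs were within 2-fold. CLDN3 was lower in PancB1Q (0.735 CPM), PancB1V (0.886 CPM), HCC4006ER (4.00 CPM) and HCC4006GR (4.43 CPM) against 3.96, 3.96, 16.9 and 11.5 CPM in the parents. It was near the limit of detection in HepG2, with 14 and 6 counts, and its call there depends on the value added before the logarithm. With 0.1 CPM in place of 1 CPM the log2 change was 1.81 in HepG2S1 and 1.47 in HepG2S3, in place of 0.80 and 0.61. 

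Between genes, levels were compared per kb of the canonical transcript, which assumes reads along the whole transcript. On this scale CLDN4 led in HepG2 with 57.1% of the summed level of the 4 claudins and CLDN7 had 0.0357%, while in HepG2S3 CLDN7 had 56.1% and in HepG2S1 41.7%. CLDN1 led in PancVB (85.1%), PancB1Q (82.0%) and PancB1V (80.3%). In HCC4006P1 CLDN4 (48.6%) and CLDN7 (39.4%) made up most of the sum, whereas in HCC4006ER CLDN3 had 51.2% of a sum that was 6.14 CPM per kb against 303 CPM per kb. In HCC827P CLDN7 had 57.6% and in HCC827GR 7.95%, where CLDN4 (44.9%) and CLDN1 (38.0%) led among these 4. CLDN3 and CLDN4, neighbours on chromosome 7, were unlike in IGROV-1, with 28.0% and 0.984% of the sum per kb. The share of CLDN1 was 32.1% in UWB1.289, 68.3% in U10 and 60.8% in U100. The HCC4006P1 sum joins replicate 2 for CLDN3 and CLDN4 with the mean of both libraries for CLDN1 and CLDN7.

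**Figure D3:**
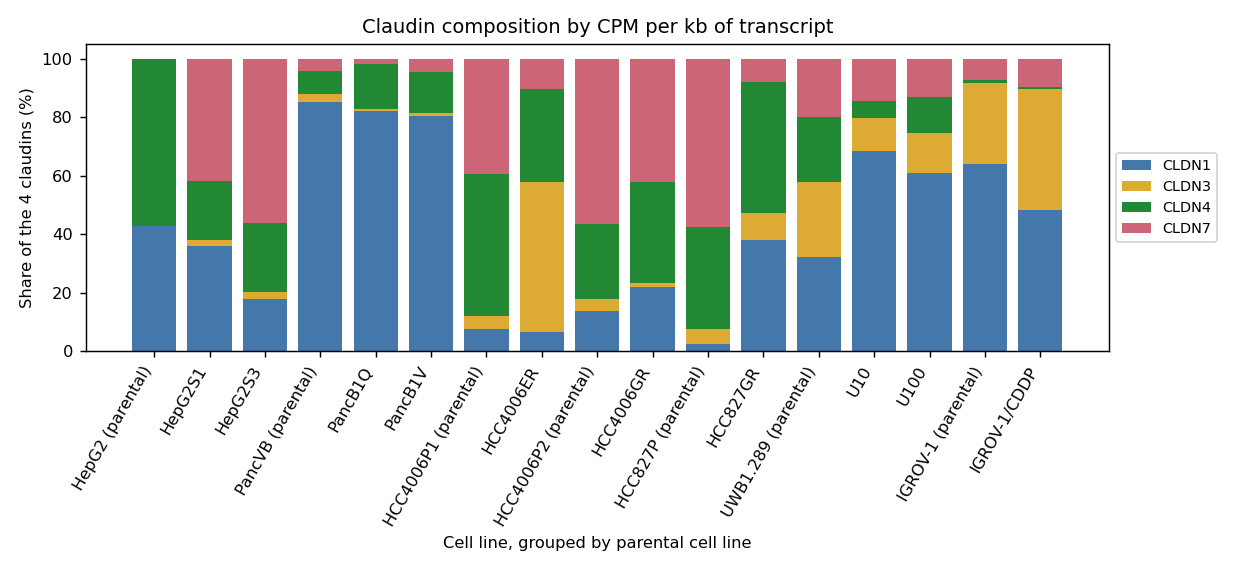
Share of CLDN1, CLDN3, CLDN4 and CLDN7 in their summed CPM per kb of transcript in each line, in percent. CLDN7 is 0.0357% of the sum in HepG2 and 56.1% in HepG2S3, and CLDN1 is over 80% in the 3 PancVB lines.

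Among the MARVEL proteins, OCLN was at 61.3 CPM in HepG2, 4.06 CPM in HepG2S1 and 3.26 CPM in HepG2S3, and at 55.0 CPM in HCC4006P1 against 16.2 CPM in HCC4006ER. In the pancreatic lines it was at 13.8 CPM in PancVB, 25.7 CPM in PancB1Q and 24.7 CPM in PancB1V, so the resistant lines had 1.87 and 1.80 times the parental level. With library sizes scaled by TMM the log2 change in PancB1Q was 1.06 in place of 0.86. MARVELD2 was at 40.0 CPM in HepG2, 7.00 CPM in HepG2S1 and 3.57 CPM in HepG2S3, and at 50.3 and 43.7 CPM in the HCC4006P1 libraries against 7.59 and 9.24 CPM in those of HCC4006ER. It was lower in HCC827GR too, with 19.5 CPM against 48.3 CPM. MARVELD3 was lower in 4 pairs and, without TMM scaling, was the only MARVEL gene that was higher past 2-fold in any. It was at 20.2 CPM in HCC4006P1 and 0.612 CPM in HCC4006ER, at 28.8 CPM in HCC827P and 2.64 CPM in HCC827GR, and it was 5.67-fold higher in IGROV-1/CDDP (13.6 CPM) than in its parent (2.40 CPM). Markers moved in IGROV-1/CDDP too, with KRT7 at 0.119 CPM against 204 CPM, CDH1 at 0.593 against 13.0 CPM and EPCAM at 0.316 against 5.97 CPM. KRT19 was at 373 CPM against 89.2 CPM, CDH2 at 29.3 against 0.109 CPM and PDGFRB at 5.46 against 0.400 CPM. Their part in the member changes of this pair was not tested.

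Both plaque genes were lower in several pairs and higher past 2-fold in none. CGN was lower in 5 pairs, the most of any member, with the largest log2 changes in HCC4006ER (5.51 CPM against 149 CPM), PancB1V (2.09 against 24.1 CPM) and HCC827GR (13.2 against 88.7 CPM). It was also lower in PancB1Q (7.91 against 24.1 CPM) and in IGROV-1/CDDP (6.80 against 24.9 CPM). In HepG2 CGN was at 3.21 CPM, and HepG2S1 and HepG2S3 had 1.42 and 1.41 CPM. These were within 2-fold with 1 CPM added, and past it (-1.07 and -1.03) with library sizes scaled by TMM. TJP3 was at 45.7 CPM in HCC4006P1 and 0.586 CPM in HCC4006ER, at 6.47 CPM in HepG2 against 1.42 and 0.593 CPM in HepG2S1 and HepG2S3, and at 26.6 CPM in UWB1.289 against 10.3 CPM in U10.

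The pairs with replicates could be tested. HepG2S3 was compared with HepG2 by the quasi-likelihood test of edgeR over 16929 genes, with 2 libraries on each side. All 9 members passed an adjusted p of 0.05, 7 of them lower and 2 higher, where 32.1% of all genes tested were lower and 31.4% higher. OCLN was at 55.6 and 67.1 CPM in the HepG2 libraries and 3.22 and 3.30 CPM in the HepG2S3 libraries, and it fell by 4.55 ± 0.18 on the log2 scale (SE, adjusted p = 5.41e-05). CLDN7 rose by 9.08 ± 0.38 (adjusted p = 6.38e-05), a fitted value that depends on 3 counts in the parent. MARVELD3 fell by 4.15 ± 0.36 (adjusted p = 0.00046), MARVELD2 fell by 3.80 ± 0.20 (adjusted p = 0.000105) and TJP3 fell by 3.76 ± 0.39 (adjusted p = 0.000806). CLDN4 fell by 2.69 ± 0.14 (adjusted p = 9.69e-05) and CLDN1 fell by 2.67 ± 0.15 (adjusted p = 0.000124). The weakest calls were CGN, which fell by 1.50 ± 0.41 (adjusted p = 0.0235), and CLDN3, which rose by 1.43 ± 0.47 (adjusted p = 0.0433). CLDN3 was at 0.382 and 0.172 CPM against 0.781 and 1.11 CPM, and CGN at 2.51 and 3.90 CPM against 1.00 and 1.83 CPM. The groups did not overlap for either, but the share of all genes without overlap was not counted, so nothing is read from this. CLDN3 lost its call with DESeq2 (adjusted p = 0.118), without HepG2 replicate 2 (0.0851), without HepG2S3 replicate 1 (0.0893) and without HepG2S3 replicate 2 (0.228), and CGN without HepG2S3 replicate 1 (0.145), where these values leaving out a library come from edgeR.

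HCC4006ER was compared with HCC4006P1 over the 12791 genes before the stop in counts, again with 2 libraries on each side. All 7 members tested there fell, where 24.9% of all genes tested were lower and 24.1% higher. CLDN7 was at 209.5 and 159 CPM in HCC4006P1 and at 0.961 and 1.03 CPM in HCC4006ER and fell by 7.47 ± 0.17 on the log2 scale (SE, edgeR adjusted p = 4.81e-06). TJP3 was at 57.8 and 33.7 CPM against 0.658 and 0.514 CPM and fell by 6.19 ± 0.27 (adjusted p = 1.65e-05). CLDN1 was at 107 and 51.1 CPM against 1.01 and 1.75 CPM and fell by 5.73 ± 0.36 (adjusted p = 5.91e-05). MARVELD3 fell by 4.98 ± 0.25 (adjusted p = 2.72e-05) and CGN fell by 4.70 ± 0.18 (adjusted p = 1.23e-05). MARVELD2 fell by 2.43 ± 0.17 (adjusted p = 9.37e-05), and OCLN fell by 1.72 ± 0.17 (adjusted p = 0.000393), the smallest change of the 7. No value of HCC4006ER reached a value of HCC4006P1 for any of the 7. The share of all genes tested that were apart in this way was not counted, so nothing is read from this.

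**Figure D4:**
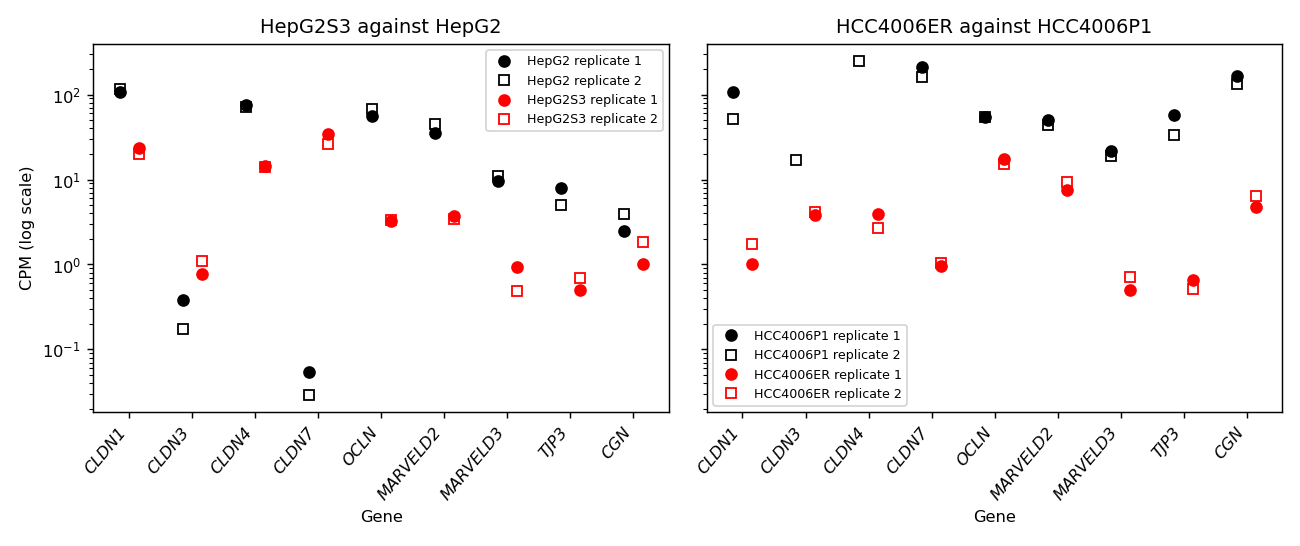
CPM of each tight junction gene in every library of the replicated pairs, on a log axis; filled circles are replicate 1 and open squares replicate 2, black for the parental and red for the resistant line. CLDN7 is the gene whose red points lie far above the black ones in the HepG2 pair and far below them in the HCC4006 pair, and CLDN3 and CLDN4 have no HCC4006P1 replicate 1 value.

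CLDN3 and CLDN4 lie in the missing stretch and were fitted on all genes without HCC4006P1 replicate 1, with 2 libraries against 1. CLDN3 fell by 2.26 ± 0.18 and CLDN4 fell by 6.42 ± 0.14 on the log2 scale in this edgeR fit (SE). It had 1 residual degree of freedom and gave every gene the same spread, so its p-values are too small to be used, and it called 31.2% of all genes lower and 30.8% higher. With the spread shared with the HepG2 and HepG2S3 libraries, a fit chosen after the data had been seen, the changes were -2.27 ± 0.32 for CLDN3 (adjusted p = 0.00218) and -6.43 ± 0.21 for CLDN4 (adjusted p = 1.14e-05), where 16.3% of all genes were lower and 15.1% higher. The lone parental library is there assumed to vary as the others do.

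The change in HCC4006ER was then set against that in HepG2S3 by an interaction term over 8 libraries, or 7 for CLDN3 and CLDN4. The difference passed an adjusted p of 0.05 for 8 of the 9 members, where 28.2% of genes were called in the one direction and 27.7% in the other (24.2% and 24.3% without HCC4006P1 replicate 1). CLDN7 differed most, by -16.55 ± 0.39 on the log2 scale (SE, edgeR adjusted p = 3.75e-08). CLDN4 (-3.73 ± 0.26, adjusted p = 3.86e-05), CLDN3 (-3.69 ± 0.51, adjusted p = 0.000991), CGN (-3.23 ± 0.43, adjusted p = 0.000255), CLDN1 (-3.09 ± 0.40, adjusted p = 0.000207) and TJP3 (-2.46 ± 0.50, adjusted p = 0.00276) fell further in HCC4006ER or, for CLDN3 and CLDN7, fell there and rose in HepG2S3. OCLN (2.80 ± 0.26, adjusted p = 3.03e-05) and MARVELD2 (1.34 ± 0.27, adjusted p = 0.00279) fell further in HepG2S3. For MARVELD3 the difference was -0.86 ± 0.47 (adjusted p = 0.151), which does not show that the changes were equal.

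**Figure D5:**
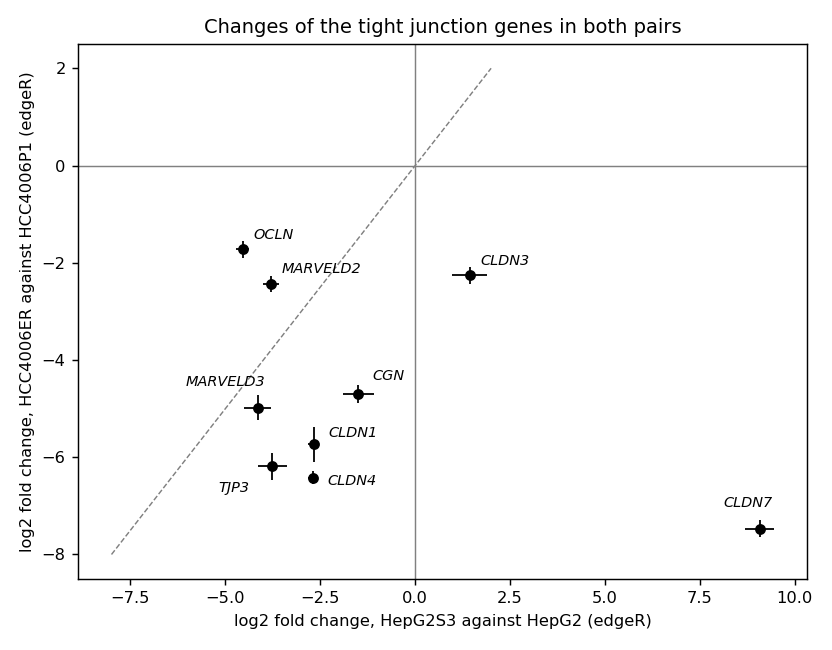
edgeR log2 fold change of each tight junction gene in HepG2S3 against HepG2 (horizontal axis) and in HCC4006ER against HCC4006P1 (vertical axis); bars are SE and the dashed line marks equal change. OCLN and MARVELD2 lie above the line, CLDN7 lies far to the right at 9.08 and -7.47, and CLDN3 is the other gene to the right of 0.

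Over all 7 families no member passed the test. Counts were summed per parental line and over its resistant lines, with HCC4006P1 given by its replicate 2 alone. The 7 resistant profiles were compared with 7 parental profiles with the family as a block. edgeR called 0 of 19829 genes in either direction, 0% of those tested, with 920 genes at an unadjusted p under 0.05, and DESeq2 called 113 genes but no member. The median member change was -0.91 against 0.02 for all genes tested. CGN had the lowest unadjusted p (0.0121), with a change of -1.79 ± 0.57 (SE, edgeR adjusted p = 0.994), and its adjusted p over the alternatives ran from 0.0555 with DESeq2 to 1. CLDN1 was at -0.29 ± 0.94 and turned to 0.17 without HepG2 and its resistant lines and to 0.31 without HCC4006P1 and HCC4006ER. CLDN7 was at -0.79 ± 1.50, the widest error of the members.

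Other genes of the junction were taken from a list of 40 genes, 15 further claudins, 7 membrane proteins and 18 plaque and polarity proteins. In HepG2S3 against HepG2, 22 of the 35 tested fell and 4 rose by edgeR, with a median change of -1.24, where 32.1% of all genes tested were lower and 31.4% higher. Those that fell furthest were CLDN6 (-8.76, from 479 and 423 counts to 1 and 1, a fitted value and not a bound), CGNL1, a relative of cingulin (-7.80, adjusted p = 9.69e-05), and CLDN2, a pore-forming claudin (-5.63, adjusted p = 0.000283). By CPM, with 1 library per line, CLDN2 was at 52.2 CPM in PancVB against 0.175 and 0.322 CPM in PancB1Q and PancB1V, and at 0.692 CPM in HCC827P against 2369 CPM in HCC827GR, values that were picked after they were seen. Those that rose furthest in HepG2S3 were CLDN18 (2.23), CLDN23 (1.82) and PALS1, a polarity scaffold (0.94). The levels of both claudins were low. CLDN18 had 4 and 5 counts in HepG2 (0.109 and 0.143 CPM) and was at 0.812 and 0.685 CPM in HepG2S3. CLDN23 was at 0.355 and 0.344 CPM against 1.47 and 1.63 CPM. In HCC4006ER against HCC4006P1, 15 of the 26 tested before the stop fell and 5 rose, with a median of -0.67, where 24.9% of all genes tested were lower and 24.1% higher. A further 7 were fitted without HCC4006P1 replicate 1, and 2 were called lower and 3 higher there, with p-values too small as for CLDN3 and CLDN4 and a background of 31.2% and 30.8%. ILDR1, a tricellular junction protein (-4.42, adjusted p = 0.000766), CLDN10 (-3.77) and CLDN9 (-3.61) fell furthest. ILDR2 (5.98, from 1 count in each parental library to 76 and 65) and the adhesion molecule JAM2 (3.22) rose furthest, beside MAGI2 (1.97) in the fit without HCC4006P1 replicate 1. The median of the 9 members was -2.69 in HepG2S3 and -4.98 in HCC4006ER, and medians over all genes tested were -0.01 and 0.01.

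Genes whose level over the 17 lines was most like the mean of the members were ranked among 14610 genes with a mean of at least 1 CPM. The 10 most alike were SPINT1 (r = 0.94), BSPRY (0.94), CDS1 (0.94), CDC42BPG (0.91), KDF1 (0.91), MUC20 (0.90), ST14 (0.90), CXCL16 (0.90), PRRG2 (0.89) and ATP2C2 (0.89). SPINT1 encodes a membrane-bound protease inhibitor and ST14 the membrane protease matriptase. Of the list of 40 other junction genes 32 could be ranked, 22 with r above 0 and 10 below, with a median of 0.21. The 3 most alike were ILDR1, which ranked 40 (r = 0.84), PATJ 61 (0.82) and CRB3 94 (0.78), and the least alike was CLDN15 (-0.70). CDH1, which encodes E-cadherin, ranked 139 (0.76) and EPCAM 250 (0.71). The other epithelial markers, KRT18 (0.21) and KRT8 (0.012), ranked 4453 and 7319. Of the mesenchymal markers, ZEB1, the EMT repressor, was at -0.78, CDH2 at -0.39, VIM at -0.39 and FN1 at 0.13. These values describe 17 lines that share parents, and nothing is read from them about common control.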

How the data were processed

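RNA-seq libraries of 17 human cancer cell lines, 21 in all, were analysed from deposited gene counts. Per the labels, the authors aligned reads to hg19 with Bowtie and TopHat, used SAMtools, and counted reads per Ensembl gene with HTSeq; versions and the strand setting are not given in the sources used here. The labels name a stranded mRNA kit for every library, while the study's methods also describe a 3′ tag kit, so which library was made with which is not certain. The count values are raw, and the summary rows of HTSeq were kept out of library sizes. Gene symbols were matched for 45100 of 53515 identifiers (84.3%).

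CPM was computed per library and averaged over replicates. Changes of CPM used a pseudocount of 1 CPM, a threshold of 2-fold, 95% Wilson intervals that cover counting error only, and a background of genes with at least 1 CPM in either line. Counts were tested with edgeR 4.0.16 (TMM, filterByExpr, glmQLFit and glmQLFTest, R 4.3.3) at a Benjamini-Hochberg adjusted p of 0.05 over all genes tested. In the main results HCC4006P1 replicate 1 was used only for genes before its stop on chromosome 7. It was left out of the test over 7 families for every gene. DESeq2 1.42.0, other scalings, pseudocounts and filters, the replicate block and leaving out each library were alternatives. The fits were tested on simulated data. Members and gene lists were chosen with earlier results of these data known. Other junction genes are named by a rule of the 3 largest changes per direction and test. Replicate libraries differed by more than sampling noise. Likeness was Pearson's r on log2(CPM + 1) with the mean z-score of the members.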

Additional observations from a re-analysis of the deposited data

Results flagged for a closer look

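The difference between the change in HCC4006ER and the change in HepG2S3 passed the edgeR interaction test for 8 members. In this test 28.2% of all genes were called lower and 27.7% higher (24.2% and 24.3% without HCC4006P1 replicate 1). On the log2 scale it was -16.55 for CLDN7, -3.73 for CLDN4, -3.69 for CLDN3, -3.23 for CGN, -3.09 for CLDN1 and -2.46 for TJP3, which were lower in HCC4006ER relative to HepG2S3. It was 2.80 for OCLN and 1.34 for MARVELD2, in the other direction. The pairs differ in tissue, drug and marker levels, which cannot be told apart here.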

How the results depend on the processing

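Of 358 results of the tests on single genes and lists under the alternatives, 349 kept their direction and side of the threshold, 5 lost the call, 1 gained it (MARVELD3 in the interaction, -1.25 without HepG2S3 replicate 2, edgeR adjusted p = 0.0484) and 3 reversed. The reversals were CLDN1 over 7 families, at 0.17 without HepG2, 0.31 without HCC4006P1 and 0.020 with HCC4006P1 and HCC4006P2 counted as 1 (range -0.83 to 0.31 when a family was left out), and the cause was not tested. Of 988 CPM values, 949 moved by less than their spread. Most of these settings left out or rescaled a library and could not change the pairs without it. The 949 therefore include many values that could not move, and nothing is read from this number. Members called higher in HepG2S3 numbered 1 with DESeq2 and 1 to 2 when a library was left out. DESeq2 called 113 genes over 7 families. In HCC4006ER, 6266 genes were called, 3417 with every gene and both parental libraries, 10281 with every gene and HCC4006P1 replicate 1 left out, and 4046 to 8370 when a library was left out. Where this left 1 library on a side, it was assumed to vary like the others. Lower CPM calls numbered 35 of 90 (38.9%), 23 of 72 without the HepG2 pairs (31.9%) and 14 of 63 without the HCC4006ER pair as well (22.2%), where 9.33%, 7.16% and 6.52% of all gene values over the same pairs were lower. The changes of CLDN3 and CLDN7 in the HepG2 family rest on few parental counts, 20 and 3 over both HepG2 libraries.

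With a replicate block, 10561 of 16929 genes tested were called in HepG2S3, 7787 of 12791 in HCC4006ER and 8196 of 14479 in the interaction. Most genes tested were thus called in each. Members called were 7 lower and 2 higher of 9 in HepG2S3 and 7 lower and 0 higher of the 7 before the stop in HCC4006ER. In the interaction 4 were lower and 2 higher of the same 7. These member calls were as without the block. Deviations of same-numbered libraries had a correlation of 0.0351 for HepG2 with HepG2S3 and of 0.416 for HCC4006P1 with HCC4006ER. The numbers were thus not shown to pair the libraries of HepG2 and HepG2S3. Same-numbered libraries of HCC4006P1 and HCC4006ER deviated in part alike, and what they share was not tested. Each number stands for the final letter (A or B) of a library name. The titles instead give both HepG2 libraries the number 1 and both HepG2S3 libraries the number 2. Which libraries of the HepG2 and HepG2S3 pair belong together is therefore uncertain.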
